A study of Mus musculus with 32 samples.

Results

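The RAS to ERK kinase cascade carries growth factor signals in blood cells, and the genes described here make the proteins that turn it down. The set holds 9 genes, found by symbol in each of 4 count tables of 22803 to 24047 rows: the dual-specificity phosphatase genes Dusp1, Dusp2, Dusp4, Dusp5 and Dusp6, the Sprouty genes Spry1 and Spry2, and the Spred genes Spred1 and Spred2. Each was measured as RNA in all 32 mouse libraries. Levels were compared between 4 Prdm16 states in leukaemia cells, and between Prdm16 knockouts and wild types in haematopoietic stem cells (HSCs).

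Prdm16 encodes a transcriptional regulator with a full-length form (f-PRDM16) and a short form (s-PRDM16). The leukaemia cells carried the MLL-AF9 fusion oncogene and were sorted, without culture, from the marrow of moribund mice. They formed 4 groups of 3 libraries: Prdm16-knockout cells overexpressing s-PRDM16 (KO+s), knockout cells overexpressing f-PRDM16 (KO+f), knockout cells with an empty vector (KO+EV) and wild-type cells with an empty vector (WT+EV). Sorted HSCs gave 6 groups: Prdm16-knockout and wild-type adult bone marrow (4 libraries each), Prdm16-knockout and wild-type fetal liver (3 each), and fetal liver of mice lacking f-PRDM16, which retain s-PRDM16, with their own wild types (3 each). The labels of the marrow and total-knockout fetal libraries, wild types included, carry the tag VAV, and those of the f-PRDM16 libraries are 47bpKO and 47bpWT. The sources used here do not explain either tag, nor give the ages of the mice or what drives the added PRDM16. The design text calls the replicates independent, but the labels name no animal or transduction behind a library, so p-values measure the spread between these libraries.

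ERK raises the transcription of its own inhibitors, so the RNA of these genes is widely read as a trace of recent ERK activity. DUSP2, DUSP4 and DUSP5 remove phosphate from ERK in the nucleus, DUSP6 does so in the cytoplasm, and DUSP1 is nuclear and acts on p38 and JNK as well. Sprouty and Spred proteins act upstream, between receptors and RAF. Spred proteins do so in part by bringing the RAS inhibitor neurofibromin to the membrane. In normal and leukaemic blood cells this feedback follows signalling by receptors such as KIT and FLT3, and several of the genes, Dusp1 above all, are also immediate early genes that respond to cell handling.

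The start regions of 6 members are shown, because 4 of these genes (Dusp5, Dusp6, Dusp2 and Spry1) were higher after add-back of either PRDM16 form in leukaemia, while Dusp1 and Spry2 were not called. RefSeq sequences on GRCm38.p6, from 250 bases before to 50 bases after the start, matched 8 of the 9 members, all but Dusp4. They lie at chr19:53528895-53529194 on the plus strand for Dusp5, chr10:99262981-99263280 on the plus strand for Dusp6, chr2:127335909-127336208 on the plus strand for Dusp2, chr3:37639697-37639996 on the plus strand for Spry1, chr17:26508423-26508722 on the minus strand for Dusp1, and chr14:105896770-105897069 on the minus strand for Spry2. Capitals mark the motifs found, and sequences run 5′ to 3′ along the gene.
Dusp5: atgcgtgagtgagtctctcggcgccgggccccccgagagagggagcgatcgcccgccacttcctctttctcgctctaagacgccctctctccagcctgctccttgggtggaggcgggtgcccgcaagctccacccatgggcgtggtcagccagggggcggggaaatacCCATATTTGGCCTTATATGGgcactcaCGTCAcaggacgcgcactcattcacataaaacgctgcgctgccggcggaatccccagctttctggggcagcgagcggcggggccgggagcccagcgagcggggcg
Dusp6: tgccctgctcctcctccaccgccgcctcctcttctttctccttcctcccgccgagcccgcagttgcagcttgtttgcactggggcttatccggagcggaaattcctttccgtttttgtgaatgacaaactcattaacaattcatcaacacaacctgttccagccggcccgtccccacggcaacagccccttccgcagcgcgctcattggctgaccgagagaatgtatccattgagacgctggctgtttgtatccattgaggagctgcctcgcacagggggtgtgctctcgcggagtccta
Dusp2: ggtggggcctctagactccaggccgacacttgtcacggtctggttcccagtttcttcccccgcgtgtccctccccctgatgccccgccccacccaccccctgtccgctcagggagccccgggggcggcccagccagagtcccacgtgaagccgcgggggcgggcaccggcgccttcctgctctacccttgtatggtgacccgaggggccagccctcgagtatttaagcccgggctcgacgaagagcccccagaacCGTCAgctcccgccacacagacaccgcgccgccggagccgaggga
Spry1: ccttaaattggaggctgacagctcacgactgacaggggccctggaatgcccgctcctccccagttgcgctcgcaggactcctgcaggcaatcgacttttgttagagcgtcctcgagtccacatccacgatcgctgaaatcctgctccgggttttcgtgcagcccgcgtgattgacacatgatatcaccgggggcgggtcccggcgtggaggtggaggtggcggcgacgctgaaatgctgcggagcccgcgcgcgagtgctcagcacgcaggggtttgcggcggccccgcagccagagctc
Dusp1: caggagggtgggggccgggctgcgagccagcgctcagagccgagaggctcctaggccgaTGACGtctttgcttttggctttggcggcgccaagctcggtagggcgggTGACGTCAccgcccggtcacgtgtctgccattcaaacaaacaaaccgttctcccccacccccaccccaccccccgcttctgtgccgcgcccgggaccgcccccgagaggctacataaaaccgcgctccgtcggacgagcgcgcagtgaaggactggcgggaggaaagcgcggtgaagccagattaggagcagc
Spry2: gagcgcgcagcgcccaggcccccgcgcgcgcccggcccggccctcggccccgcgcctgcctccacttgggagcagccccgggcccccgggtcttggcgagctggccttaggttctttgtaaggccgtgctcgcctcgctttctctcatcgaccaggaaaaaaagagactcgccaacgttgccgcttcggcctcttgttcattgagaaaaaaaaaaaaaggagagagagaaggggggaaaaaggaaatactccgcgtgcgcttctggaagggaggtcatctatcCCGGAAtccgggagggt
Both strands were searched for the cAMP response element TGACGTCA, its core TGACG (also counted inside the full element) and the AP-1 site TGANTCA. The ETS-type site CCGGAA and the CArG box bound by serum response factor were searched as well. Shorter GGAA strings, which some of these windows hold, were not counted. In Dusp5, 2 CArG boxes stood next to each other, their leftmost bases at positions -82 and -72 from the start, with a TGACG core on the other strand at -55. CArG boxes occur in 1.63% of 32851 RefSeq start regions of this length, and Dusp5 was the only matched member with any. Dusp1 held a full element at -143, found in 1.79% of regions, and 3 cores, 2 of them inside that element. Dusp2 had a core at position 6 and Spred2 had 1 at -51, against 20.8% of regions. Spry2 had a CCGGAA site, found in 14.9% of regions. No AP-1 site was found in a matched member (7.81% of regions), and none of these motifs was found in the windows of Dusp6, Spry1 or Spred1. A match is a string of letters and not a measured binding site.

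Depth was 16353584 to 23785307 counts per leukaemia library, 22490805 to 29343602 in bone marrow, 26715538 to 33246080 in the total-knockout fetal table and 35503288 to 44952448 in the f-PRDM16 fetal table. Levels are counts-per-million values (CPM). Prdm16 itself was 295, 230 and 179 CPM in KO+s, 335, 242 and 243 in KO+f, 0, 0.0951 and 0.0490 CPM in KO+EV, and 1.04, 0.729 and 0.429 CPM in WT+EV, so the added forms stood far above the native level. In bone marrow the libraries labelled knockout had 13.4 to 41.3 CPM of Prdm16, against 10.5 to 53.4 CPM in wild type, and Prdm16 RNA does not separate these labels. In fetal liver it was 10.8 to 24.6 CPM in total knockouts against 25.5 to 39.8 CPM in their wild types, and 6.29 to 9.81 CPM in f-PRDM16 knockouts against 13.2 to 34.7 CPM in theirs. The counts are per gene and do not tell the forms apart. The 5 leukaemia markers (Hoxa9, Hoxa10, Meis1, Kit and Itgam) summed to 1160 to 2200 CPM in the leukaemia libraries. They came to 1080 to 2440 CPM in marrow HSCs and 392 to 993 CPM in fetal HSCs. Their sum therefore does not set leukaemia apart from marrow HSCs. All 8 HSC markers were above 0 in every HSC group, summing to 942 to 4250 CPM per library, against 297 to 636 CPM in leukaemia. Meis1 and Kit are in both lists. Genes below a minimum count were left out of the tests, which removed Dusp4 in leukaemia, and 8 members were tested there and 9 in HSCs.

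**Figure D1:**
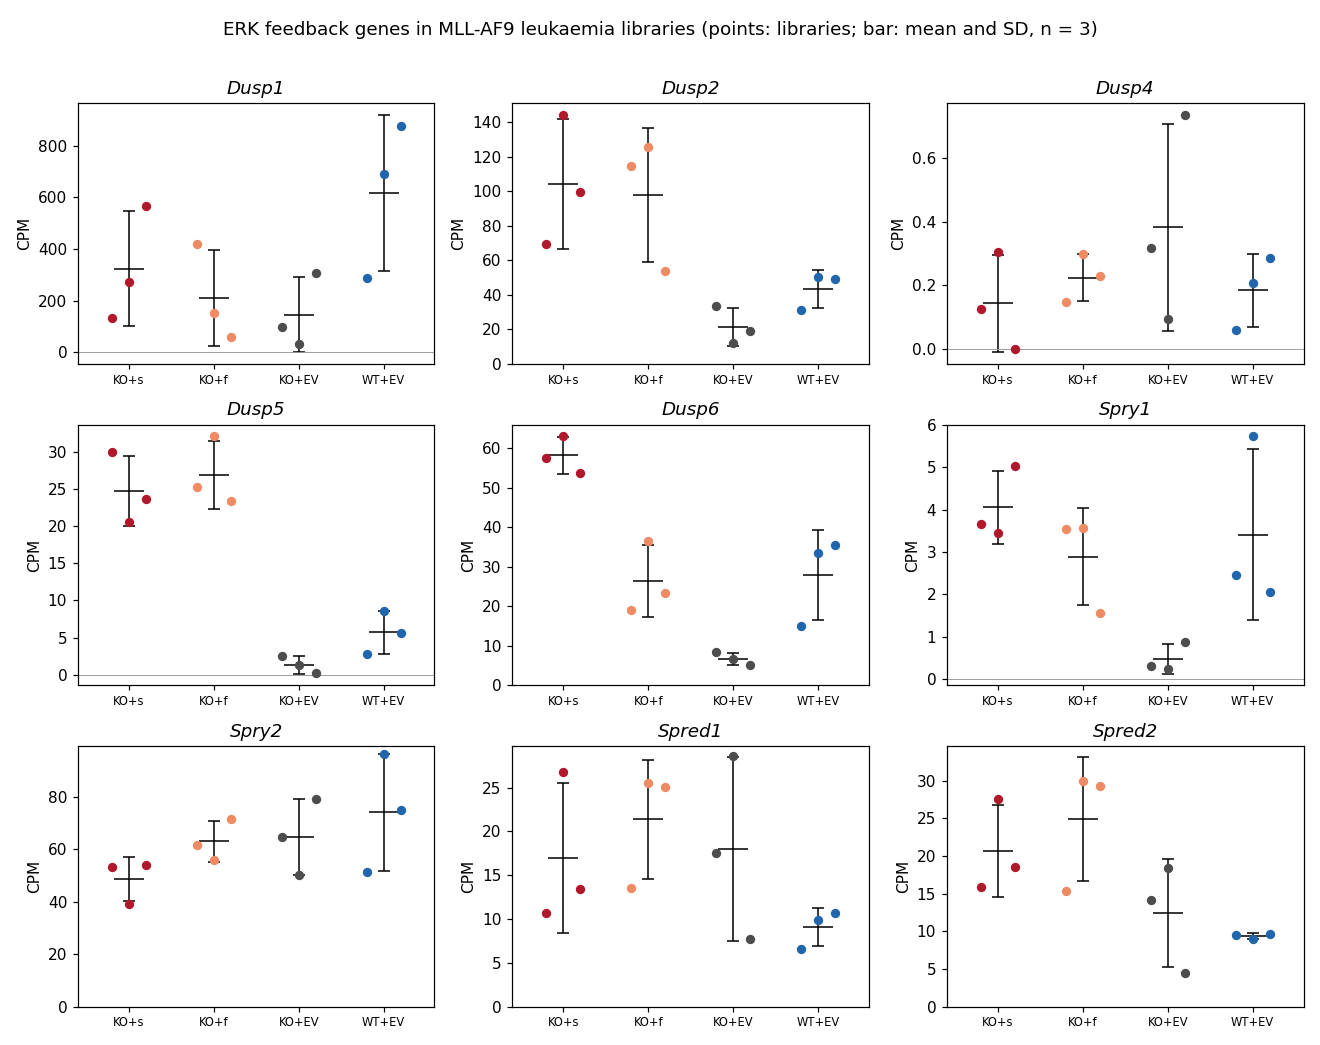
CPM (linear axes) of the 9 genes in each of the 12 MLL-AF9 leukaemia libraries, with the mean and SD of each group of 3. Dusp5, Dusp6 and Spry1 had no library of KO+EV inside the range of any other group, Dusp2 had none inside KO+s or KO+f, and Dusp4 was at most 0.735 CPM.

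What did loss of Prdm16 do to this feedback in leukaemia? Dusp6 fell to 6.70 ± 1.62 CPM in KO+EV against 28.0 ± 11.4 CPM in WT+EV (SD, n = 3 each), and Spry1 fell to 0.479 ± 0.351 against 3.41 ± 2.02 CPM. Those 2 of 8 tested members passed an adjusted p of 0.05 as lower, where 1.20% of all genes did, and 0 members passed as higher, where 0.903% of genes did. The members and the gene lists below were chosen with earlier results of these data known. Shares of all genes therefore stand beside their counts as description and not as a test. Log2 changes were negative for 6 of the 8, with a median of -1.51 against 0.0022 over all 12958 genes tested. The libraries of KO+EV and WT+EV did not overlap for 3 members (Dusp5, Dusp6 and Spry1, all lower), beside 23.2% of all genes in either direction. In sorted bulk cells, fewer cells of a type and less RNA per cell cannot be told apart.

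Adding PRDM16 back raised the same 2 genes and 2 more. Dusp2, Dusp5, Dusp6 and Spry1 rose in KO+f and in KO+s against KO+EV, and none of the other tested members passed. In KO+f these 4 of 8 stand beside 6.88% of all genes passing as higher and 0 members beside 4.39% as lower. In KO+s they stand beside 15.9% as higher, and 0 beside 16.6% as lower. The same 4 of 8 genes had no overlap between groups in each comparison, beside 34.0% of all genes for KO+f and 51.1% for KO+s. For KO+s this count is near the share of all genes. Median log2 changes over the 8 were 1.48 for KO+f and 1.78 for KO+s, against -0.012 and -0.0091 over all genes. These comparisons share the KO+EV libraries, so KO+EV values enter each of them.

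**Figure D2:**
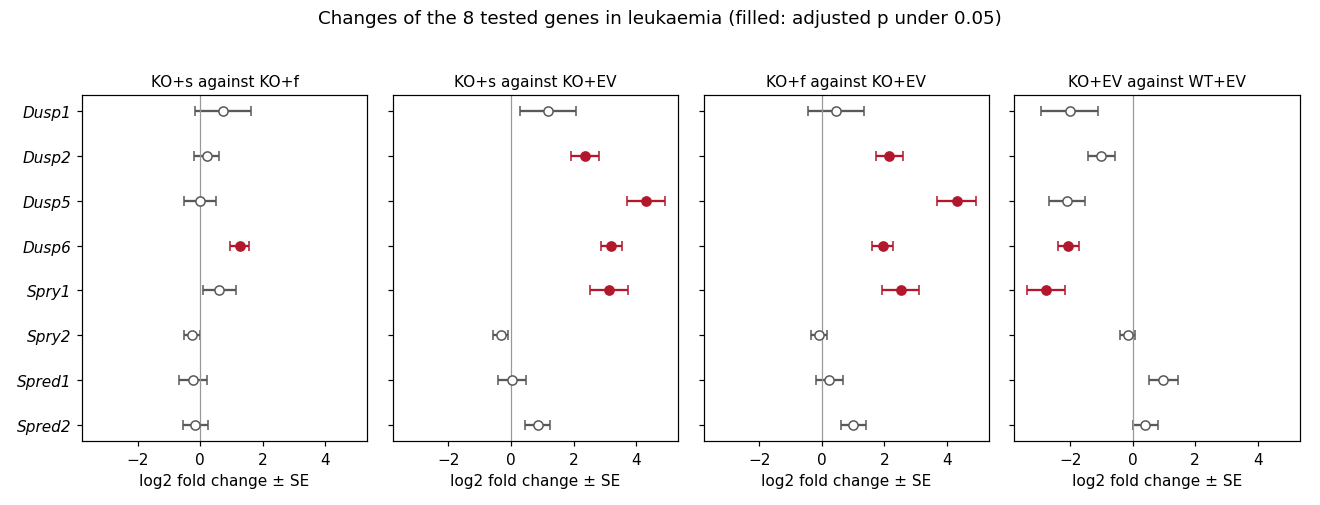
Log2 fold changes with SE (edgeR) of the 8 tested genes in 4 leukaemia comparisons; filled points passed an adjusted p of 0.05 and open points did not. Dusp6 and Spry1 lie left of 0 in KO+EV against WT+EV and right of 0 in both add-back comparisons, while Spry2 stays within 0.34 of 0 in these 4 panels.

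Among the nuclear phosphatases, Dusp5, whose product is specific for ERK, had the largest log2 change of the 8 tested members in both add-back comparisons. It stood at 29.9, 20.6 and 23.7 CPM in KO+s, at 25.2, 32.03 and 23.4 CPM in KO+f, at 2.53, 1.33 and 0.196 CPM in KO+EV and at 2.87, 8.59 and 5.67 CPM in WT+EV. All 6 add-back libraries lay above all 6 empty-vector libraries, and KO+EV lay below WT+EV. Against KO+EV the rise was 19.8-fold in KO+s (log2 4.31 ± 0.61, SE, adjusted p = 0.000757) and 19.9-fold in KO+f (4.31 ± 0.61, adjusted p = 0.00303), and each call held without any 1 library. The lower level of KO+EV against WT+EV did not pass (-2.10 ± 0.58, adjusted p = 0.0909), though it did by DESeq2 (adjusted p = 0.00465). Both forms left Dusp5 above the wild-type cells, 4.64-fold in KO+s (2.21 ± 0.54, adjusted p = 0.0139) and 4.64-fold in KO+f (2.22 ± 0.54, adjusted p = 0.0289). The KO+s call ended without KO+s library 1 (adjusted p = 0.0535). The KO+f call ended without WT+EV library 1 (0.0883) or 3 (0.0940) and without KO+f library 1 (0.0674) or 2 (0.0751).

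Dusp2, an early-response nuclear phosphatase of blood cells, was 69.2, 144 and 99.4 CPM in KO+s, 115, 126 and 53.6 in KO+f, 33.4, 12.2 and 18.9 CPM in KO+EV and 31.0, 50.3 and 49.1 CPM in WT+EV. Every add-back library again lay above every empty-vector library, while KO+EV and WT+EV overlapped. Dusp2 rose 5.16-fold in KO+s (2.37 ± 0.43, adjusted p = 0.00256) and 4.48-fold in KO+f (2.16 ± 0.43, adjusted p = 0.0121) against KO+EV. Both calls were kept without any 1 library, but the KO+f call ended when only those 2 groups were fitted (2.18 ± 0.45, adjusted p = 0.0533). KO+EV against WT+EV gave -1.001 ± 0.42 (adjusted p = 0.236). Against WT+EV it rose in KO+s (1.37 ± 0.42, adjusted p = 0.0360), a call kept only without KO+s library 1 among 6 leave-one-out fits (adjusted p 0.0401 to 0.113), and it did not pass in KO+f (1.16 ± 0.42, adjusted p = 0.0999; 0.0272 by DESeq2).

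Dusp1, whose product also acts on p38 and JNK, had no call. Its mean level per kilobase of exon sequence was the highest of the set in every leukaemia group. That rank rested on 1 library in KO+f, where Dusp1 was below Dusp2 in libraries 2 and 3, and in KO+EV, where it was below Spry2 in libraries 1 and 2. It was 131, 271 and 567 CPM in KO+s, 418, 151 and 60.6 in KO+f, 96.1, 31.5 and 309 CPM in KO+EV and 286, 689 and 876 CPM in WT+EV. Libraries of the same group differed by more than most group means did, and all pairs of groups overlapped. Log2 changes were 1.19 ± 0.89 in KO+s (adjusted p = 0.335) and 0.45 ± 0.88 in KO+f (adjusted p = 0.766) against KO+EV, and -2.02 ± 0.91 in KO+EV against WT+EV (adjusted p = 0.275).

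Dusp4, a nuclear phosphatase, was at the edge of detection in leukaemia and was not tested. It gave 9 counts over the 3 KO+s libraries, 14 in KO+f, 23 in KO+EV and 11 in WT+EV, or 0 to 0.735 CPM. Library 3 of KO+s had 0 counts, which allows up to 0.144 CPM (3 counts, counting error only).

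The cytoplasmic ERK phosphatase gene Dusp6 was the 1 member called between the 2 forms. It was 57.6, 63.1 and 53.8 CPM in KO+s, 19.1, 36.5 and 23.3 in KO+f, 8.34, 6.66 and 5.10 CPM in KO+EV and 14.9, 33.5 and 35.5 CPM in WT+EV. KO+s lay above all other libraries and KO+EV below all others, with KO+f inside the wild-type range apart from its highest library. KO+s was 9.27-fold above KO+EV (3.21 ± 0.34, adjusted p = 0.000145) and KO+f 3.86-fold (1.95 ± 0.33, adjusted p = 0.00608), both kept without any 1 library. The fall in KO+EV against WT+EV (-2.06 ± 0.33, adjusted p = 0.0196) ended without WT+EV library 3 (0.0508) or KO+EV library 2 (0.0813), and when only these 2 groups were fitted (0.0944).

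Does the short form differ from the full-length form? Dusp6 was 2.40-fold higher in KO+s than in KO+f (1.26 ± 0.32, adjusted p = 0.0492), 1 of 8 members beside 2.05% of all genes passing as higher, and 0 beside 1.76% as lower. The call is at its limit: it passed only without KO+f library 2 among 6 leave-one-out fits (adjusted p 0.0365 to 0.160), and not without the low-count filter (0.0580). CPM of KO+s and KO+f did not overlap for Dusp6 (higher) and Spry2 (lower), 2 of 8 beside 33.6% of all genes. On TMM-scaled library sizes Spry2 did overlap, with KO+s up to 57.6 and KO+f down to 54.1 CPM. For Dusp5 the forms gave 24.7 ± 4.73 CPM in KO+s and 26.9 ± 4.55 CPM in KO+f (-0.0019 ± 0.51). The difference was 0.20 ± 0.41 for Dusp2 and 0.60 ± 0.53 for Spry1 (adjusted p = 0.805 and 0.534). Against WT+EV, 4 of 8 members passed as higher in KO+s (Dusp2, Dusp5, Dusp6 and Spred2) beside 11.8% of genes, and 0 as lower beside 11.9%. In KO+f 1 passed as higher (Dusp5) beside 6.11%, and 0 as lower beside 3.86%. These counts depend on the fit: in KO+s it was 1 to 2 without any 1 library and 2 without the low-count filter, and in KO+f it was 0 to 1 without any 1 library, 0 without the filter, 3 when only those 2 groups were fitted and 4 by DESeq2. They do not test a difference between the forms. Non-overlap with WT+EV held for 4 of 8 members in KO+s (those that passed) beside 45.5% of genes, near that share. In KO+f it held for 4 of 8 (Dusp2, Dusp5, Spred1 and Spred2) beside 31.5%. Dusp6 itself was 1.16 ± 0.32 above WT+EV in KO+s (adjusted p = 0.0214; 0.0606 and 0.0533 without KO+s library 1 or 2) and -0.11 ± 0.31 in KO+f.

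Spry1, an inhibitor of signalling from growth factor receptors to ERK, had the lowest mean level per kilobase of the tested members in every leukaemia group. It had 3.66, 3.46 and 5.03 CPM in KO+s, 3.55, 3.57 and 1.56 in KO+f, 0.317, 0.238 and 0.882 CPM in KO+EV and 2.45, 5.73 and 2.05 CPM in WT+EV. KO+EV lay below every other library, on 6, 5 and 18 counts, and the other 3 groups overlapped. The rise was 8.73-fold in KO+s (3.13 ± 0.60, adjusted p = 0.00290), kept without any 1 library, and 5.74-fold in KO+f (2.52 ± 0.60, adjusted p = 0.0222). The KO+f call ended without KO+EV library 1 (0.0602) or 2 (0.0807) and without KO+f library 1 (0.0632) or 2 (0.0649), and when only those 2 groups were fitted (0.0762). The fall in KO+EV against WT+EV (-2.77 ± 0.60, adjusted p = 0.0421) was kept only without KO+EV library 3 (adjusted p 0.0168 to 0.149 over 6 fits), and it ended when only those 2 groups were fitted (0.139).

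Spry2, the other Sprouty gene, was not called in leukaemia. It was 53.1, 39.1 and 53.9 CPM in KO+s, 61.6, 56.0 and 71.5 in KO+f, 64.9, 50.4 and 79.3 CPM in KO+EV and 51.5, 96.2 and 74.9 CPM in WT+EV. Its log2 changes in the 6 leukaemia comparisons were between -0.50 ± 0.25 (KO+s against WT+EV, adjusted p = 0.170) and -0.08 ± 0.25 (KO+f against KO+EV, adjusted p = 0.849), and 0 of 6 passed.

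Spred1 and Spred2, the RAF-level inhibitors, had their lowest group means in wild-type cells. Spred1 was 10.7, 26.8 and 13.5 CPM in KO+s, 13.5, 25.5 and 25.1 in KO+f, 17.5, 28.6 and 7.69 CPM in KO+EV and 6.60, 9.84 and 10.7 CPM in WT+EV. Spred2 was 15.9, 27.6 and 18.6 CPM in KO+s, 15.4, 30.0 and 29.3 in KO+f, 14.2, 18.5 and 4.51 CPM in KO+EV and 9.54, 8.96 and 9.68 CPM in WT+EV. The 3 wild-type Spred2 values are close together, while the knockout groups spread widely. Spred2 passed in KO+s against WT+EV (1.25 ± 0.41, adjusted p = 0.0443), but in none of 6 leave-one-out fits (0.0669 to 0.137), and just missed in KO+f (1.40 ± 0.41, adjusted p = 0.0506). Spred1 gave 1.22 ± 0.45 in KO+f against WT+EV (adjusted p = 0.110). In KO+f against WT+EV both passed by DESeq2 (adjusted p = 0.0409 for Spred1 and 0.00718 for Spred2) and when only those 2 groups were fitted (0.0429 and 0.0180), and neither gene passed against KO+EV or in KO+EV against WT+EV.

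How did the rest of the pathway behave? Among 17 tested ERK-driven transcripts 12 rose and 0 fell in KO+s against KO+EV (median log2 change 1.97), where 15.9% of all genes rose. In KO+f against KO+EV 6 rose and 0 fell (1.30), where 6.88% of all genes rose, and in KO+EV against WT+EV 0 rose and 4 fell (-1.51), where 1.20% of all genes fell. Fosl2, an AP-1 subunit, rose to 192 ± 57.5 CPM in KO+s and 125 ± 17.6 CPM in KO+f against 56.5 ± 6.24 CPM in KO+EV (adjusted p = 0.000771 and 0.0225). Egr1, an immediate early zinc finger factor, fell to 21.2 ± 17.1 CPM in KO+EV against 213 ± 140 CPM in WT+EV (-3.34 ± 0.65, adjusted p = 0.0343). Between KO+s and KO+f 0 of these 17 passed (median 0.54), where 2.05% of all genes rose and 1.76% fell. Against WT+EV 1 rose and 0 fell in KO+s (median 0.32), and 1 rose and 1 fell in KO+f (-0.145). Of all genes 11.8% rose and 11.9% fell in KO+s against WT+EV, and 6.11% and 3.86% in KO+f. Fos, Fosb, Junb, Egr1, Ier2, Ier3 and Zfp36 also belong to the handling and stress transcripts below, so the counts of these lists are not separate.

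Of 19 tested genes of the cascade itself, from adaptors to ERK, 5 rose and 0 fell in KO+s against KO+EV (median 0.29), 1 rose and 0 fell in KO+f (0.14), and 0 passed in KO+EV against WT+EV or between the forms. Of all genes 15.9% rose and 16.6% fell in KO+s against KO+EV, and 6.88% rose and 4.39% fell in KO+f. In KO+EV against WT+EV 0.903% rose and 1.20% fell, and between the forms 2.05% and 1.76%. Braf, the RAF kinase gene, rose to 205 ± 14.9 CPM in KO+s and 164 ± 15.7 CPM in KO+f against 110 ± 7.60 CPM in KO+EV (0.99 ± 0.11 and 0.55 ± 0.11, adjusted p = 0.000210 and 0.0127). RAS GTPase-activating protein genes went both ways in KO+s against KO+EV, 2 up and 4 down of 9, and 1 up and 0 down in KO+f. Rasa4 rose to 80.7 ± 31.1 CPM in KO+s and 80.7 ± 20.5 CPM in KO+f against 11.7 ± 7.62 CPM in KO+EV (adjusted p = 0.00273 and 0.0106), and Rasal3 fell to 29.7 ± 3.89 CPM in KO+s against 84.5 ± 19.8 CPM in KO+EV (adjusted p = 0.000188).

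Of 9 tested other feedback and MAPK phosphatase genes, 3 rose and 2 fell in KO+s against KO+EV, 2 rose and 0 fell in KO+f, and 0 passed in KO+EV against WT+EV. For this list and the receptor and kinase lists below, 15.9% of all genes rose and 16.6% fell in KO+s, and 6.88% and 4.39% in KO+f. In KO+EV against WT+EV 0.903% rose and 1.20% fell. Dusp7, a cytoplasmic ERK phosphatase gene related to Dusp6, rose to 30.8 ± 4.11 CPM in KO+s and 34.4 ± 3.05 CPM in KO+f against 22.6 ± 3.23 CPM in KO+EV (adjusted p = 0.0300 and 0.0464). Dusp9, of the same subfamily, fell to 1.59 ± 0.370 CPM in KO+s against 5.11 ± 2.01 CPM in KO+f (-1.56 ± 0.39, adjusted p = 0.0486) and 4.27 ± 1.81 CPM in KO+EV (adjusted p = 0.0234). Dusp16, which acts on JNK, rose to 5.05 ± 3.30 CPM in KO+f against 0.935 ± 0.642 CPM in KO+EV (adjusted p = 0.0286). Of 8 tested receptor genes 4 rose and 1 fell in KO+s against KO+EV. Csf3r, the G-CSF receptor gene, rose to 467 ± 62.1 CPM in KO+s against KO+f (194 ± 41.5 CPM) and KO+EV (208 ± 28.3 CPM) (adjusted p = 0.00489 and 0.000374), and Csf2rb, the shared beta chain of the IL-3 and GM-CSF receptors, fell to 162 ± 31.7 CPM in KO+s against 453 ± 101 CPM in KO+EV (adjusted p = 0.000949). Of the 4 tested JNK and p38 kinase genes Mapk8 alone passed, rising to 96.8 ± 6.07 CPM in KO+s and 98.5 ± 8.26 CPM in KO+f against 48.4 ± 4.98 CPM in KO+EV (adjusted p = 0.000134 and 0.000917).

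Some transcripts of handling and stress, like some of the feedback genes, rose with either add-back against KO+EV and fell in KO+EV against WT+EV. Summed over 16 genes (among them Fos, Jun, Egr1, Atf3 and Hspa1a) they came to 2480, 2700 and 4280 CPM in KO+s, 3110, 1500 and 1100 in KO+f, 921, 404 and 1300 CPM in KO+EV and 1860, 5070 and 5110 CPM in WT+EV. Of the 16, 11 rose in KO+s and 5 in KO+f against KO+EV, 5 fell in KO+EV against WT+EV, and 0 went the other way. The shares of all genes were 15.9% rising in KO+s, 6.88% rising in KO+f and 1.20% falling in KO+EV. Against WT+EV 0 of the 16 passed in KO+s (median log2 change 0.12) and 0 in KO+f (-0.715), and 0 passed between KO+s and KO+f (0.87). Of all genes 11.8% rose and 11.9% fell in KO+s against WT+EV, 6.11% and 3.86% in KO+f, and 2.05% and 1.76% between the forms. Dusp1 was highest in the group's library with the highest sum in KO+s, KO+f, KO+EV and WT+EV. Granulocyte markers (10 genes) summed to 22200 to 24900 CPM in KO+s, 10900 to 15600 in KO+f, 10300 to 50400 in KO+EV and 8630 to 16400 in WT+EV, and monocyte and macrophage markers to 1580 to 2680 CPM in KO+s, 540 to 967 in KO+f, 364 to 507 in KO+EV and 437 to 728 in WT+EV, with no granulocyte marker at 0. The high KO+EV granulocyte value was library 3, and libraries 1 and 2 of KO+EV had 10700 and 10300 CPM. The part of handling and of other cell types in these changes was not tested.

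**Figure D3:**
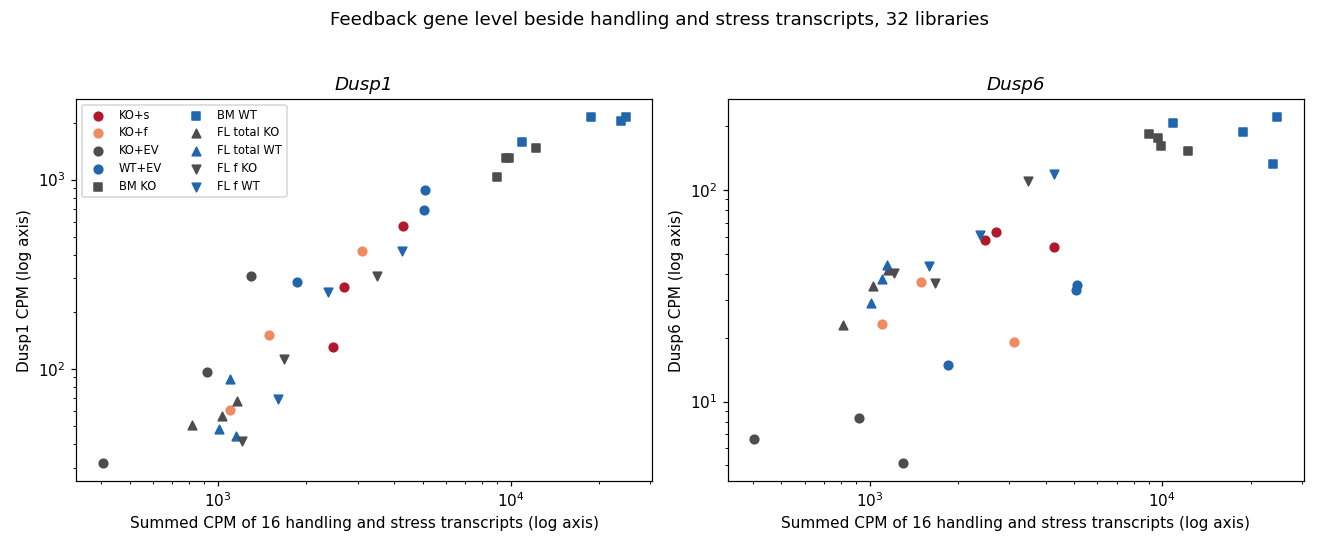
Dusp1 and Dusp6 CPM against the summed CPM of 16 handling and stress transcripts in all 32 libraries, both axes logarithmic. The marrow libraries are highest both in Dusp1 and in the sum. Within each leukaemia group, each f-PRDM16 fetal group and the total-knockout fetal knockouts, Dusp1 ranks the libraries as the sum does. It does not within either marrow group or the total-knockout fetal wild types, whose sums are 1010 to 1150 CPM. For Dusp6 the 3 KO+EV libraries (5.10 to 8.34 CPM) lie below the rest, at sums of 404 to 1300 CPM.

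Do the same genes answer to Prdm16 in normal adult HSCs? Prdm16 RNA did not separate the knockout and wild-type labels in marrow (log2 change -0.031 ± 0.45, SE, edgeR adjusted p = 0.988). These libraries therefore cannot decide the question. No member passed in bone marrow, 0 of 9 beside 0% of 13495 genes in either direction. At unadjusted p under 0.05 it was 4 members (Dusp1, Dusp2, Dusp5 and Spry1, all lower in knockout) and 1141 genes, and DESeq2 called 1 member and 64 genes. The log2 change was negative for 7 of 9, median -0.41 against -0.031 over all genes. Dusp1 was the 1 member whose groups did not overlap, beside 5.82% of all genes.

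Dusp1 stood at 1031, 1295, 1461 and 1306 CPM in knockout marrow HSCs, against 2144, 2042, 2151 and 1579 CPM in wild type. All 4 knockout libraries lay below all 4 wild-type libraries. The log2 change was -0.64 ± 0.16, with an adjusted p of 0.478 in edgeR and 0.0228 in DESeq2. Dusp5 was 41.3, 33.1, 30.5 and 23.3 CPM in knockout against 128, 78.0, 58.0 and 29.0 CPM in wild type (-1.18 ± 0.36, adjusted p = 0.521), and Spry1 was 62.4, 63.4, 54.7 and 60.4 CPM against 219, 98.2, 108 and 39.4 CPM (-0.93 ± 0.37, adjusted p = 0.547). The wild-type libraries were widely spread for both genes, and wild-type library 4 was the lowest of its group for each of Dusp1, Dusp2, Dusp4, Dusp5 and Spry1. Dusp6 was 168 ± 13.8 against 187 ± 39.0 CPM (SD, n = 4 each; -0.15 ± 0.17, adjusted p = 0.779). The 16 handling and stress transcripts summed to 8990, 9880, 12200 and 9660 CPM in knockout and 24700, 23900, 18800 and 10900 CPM in wild type, again lowest in wild-type library 4, and their part in these values was not tested. Of them 0 passed, with a median log2 change of -1.06. ERK-driven transcripts, which share genes with that list, had a median of -0.84 with 0 of 19 passing.

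In fetal liver the total knockout gave no call in the set. Of 9 members 0 passed, beside 0% of 15590 genes, and at unadjusted p under 0.05 it was 0 members and 739 genes (76 genes in DESeq2, 0 of them members). No member separated the groups, beside 11.0% of all genes. Log2 changes lay between -0.37 ± 0.51 (Dusp4) and 0.0074 ± 0.14 (Dusp2), median -0.16. Dusp6 was 41.8, 35.1 and 22.9 CPM in knockout against 44.2, 29.2 and 37.96 CPM in wild type, and Dusp5 was 30.9, 25.4 and 14.8 CPM against 30.9, 34.4 and 20.5 CPM. Same-numbered libraries moved together in this table, and with the replicate number as a block 176 genes passed (1.13%), again with 0 members (lowest adjusted p = 0.294, Spred1, -0.22 ± 0.085). Granulocyte markers summed to 736 to 12900 CPM in knockout and 170 to 1750 CPM in wild type, and their part was not tested.

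Where fetal HSCs lost only f-PRDM16 and kept the short form, 0 of 9 members passed beside 0% of 13631 genes, with 1 member (Dusp4) and 357 genes at unadjusted p under 0.05 and 0 members and 1 gene in DESeq2. No member separated the groups, beside 7.31% of all genes. Dusp4 was 5.33, 9.03 and 7.46 CPM in f-PRDM16 knockout against 8.91, 16.3 and 14.6 CPM in wild type (-0.77 ± 0.31, adjusted p = 0.999), Dusp5 16.1, 23.0 and 30.5 against 23.9, 34.0 and 49.9 CPM (-0.53 ± 0.33, adjusted p = 0.999), and Dusp1 41.3, 113 and 311 against 69.0, 254 and 417 CPM (-0.55 ± 0.83, adjusted p = 0.999). Libraries of equal number rose and fell together: for Dusp1, library 3 was highest and library 1 lowest in each genotype.

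Within each number, Dusp5 in the f-PRDM16 knockout was 0.674, 0.675 and 0.611 of its wild type, and Dusp4 was 0.598, 0.555 and 0.509. By CPM on raw library totals, 7 of the 9 members were lower in knockout in all 3 numbers and 0 higher. Of all tested genes 30.6% were lower and 9.29% higher. Spred1 and Spry2 were the exceptions. On TMM-scaled library sizes Dusp6 in number 3 (118 against 115 CPM) and Spry1 in number 1 (12.63 against 12.53 CPM) were also higher in knockout, so the count depends on the scaling. In the total knockout the count on raw totals was 3 of 9 lower (Dusp4, Spred1 and Spred2) and 0 higher, beside 23.1% and 14.2% of genes. A fit with the number as a block gave Dusp1 -0.69 ± 0.16, Dusp4 -0.77 ± 0.17 and Dusp5 -0.53 ± 0.12 for the f-PRDM16 knockout, each with an adjusted p of 0.258, so none passed. Handling and stress transcripts were 1210, 1680 and 3490 CPM in f-PRDM16 knockout and 1600, 2380 and 4260 CPM in wild type, lower in knockout in each number. Granulocyte markers were 7290, 31200 and 45900 CPM against 6740, 3360 and 20700 CPM, higher in knockout in each number. Their part in the member values was not tested.

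**Figure D4:**
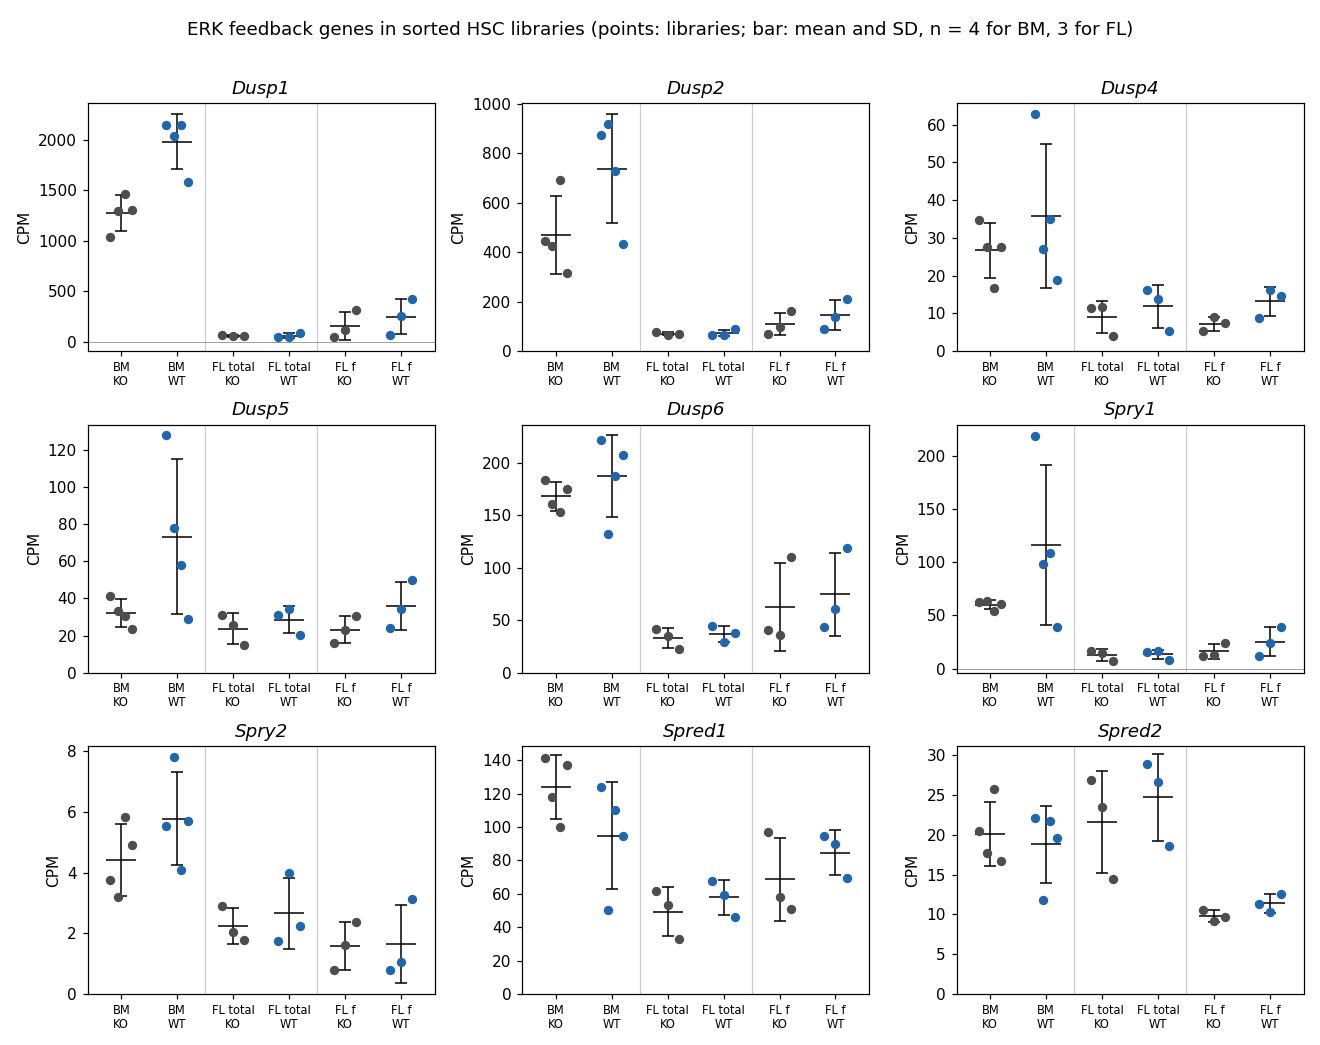
CPM (linear axes) of the 9 genes in the 20 sorted HSC libraries, knockout left of wild type in each of 3 tables (BM, bone marrow; FL total, fetal liver total knockout; FL f, fetal liver f-PRDM16 knockout), with mean and SD. Dusp1 in bone marrow is the panel where knockout (1031 to 1461 CPM) and wild type (1579 to 2151 CPM) do not overlap, and in every other gene and table they do.

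No member's response differed between HSC comparisons by a test of the difference itself. Between the total fetal knockout and bone marrow, 2 of 16211 genes passed (1183 at unadjusted p under 0.05) and the lowest adjusted p among members was 0.700 for Dusp5 (fetal minus marrow, 0.94 ± 0.53). Between the f-PRDM16 and total fetal knockouts 0 genes passed (211 at unadjusted p under 0.05), and the members' differences (f-PRDM16 minus total) ran from -0.55 ± 0.79 (Dusp1) to 0.25 ± 0.76 (Spry2), all with an adjusted p of 1.00. Leukaemia and HSC responses were not set against each other in a test, since the libraries were prepared differently.

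Levels across the tables had distinct patterns by gene, given as a description because the HSC libraries were amplified from low input and the leukaemia libraries were not. Spry2 was 39.1 to 96.2 CPM in the 12 leukaemia libraries and 0.775 to 7.80 CPM in the 20 HSC libraries. Spry1 ran the other way, with 0.238 to 5.73 CPM in leukaemia and 6.89 to 219 CPM in HSCs, and so did Dusp4 (0 to 0.735 against 4.04 to 62.7 CPM) and Spred1 (6.60 to 28.6 against 33.0 to 141 CPM). For these 4 genes the leukaemia and HSC ranges do not overlap. Marrow HSCs lay above fetal HSCs for Dusp1 (1031 to 2151 against 41.3 to 417 CPM), Dusp2 (316 to 917 against 64.5 to 211 CPM), Dusp6 (133 to 221 against 22.9 to 119 CPM) and Dusp4 (16.9 to 62.7 against 4.04 to 16.3 CPM). Handling and stress sums in these libraries were 8990 to 24700 CPM in marrow and 814 to 4260 CPM in fetal liver, and cell source, preparation and handling cannot be told apart here.

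Per kilobase of exon sequence, the order of the 9 genes by mean level differed between the leukaemia groups. In KO+s it ran from Dusp1 (97.6 ± 67.2 CPM per kilobase) through Dusp2 (52.0 ± 18.8), Spry2 (23.3 ± 3.99), Dusp6 (18.6 ± 1.49) and Dusp5 (9.997 ± 1.914) to Spred2, Spred1, Spry1 and Dusp4, where Dusp1 and Dusp2, and Spry2 and Dusp6, lay within their SDs. In KO+f it began with Dusp1 (63.4 ± 56.1), Dusp2 (48.9 ± 19.3), Spry2 (30.2 ± 3.75), Dusp5 (10.9 ± 1.84) and Dusp6 (8.40 ± 2.91), where neighbours again lay within their SDs apart from Spry2 and Dusp5. In KO+EV Dusp1 (43.9 ± 43.8) and Spry2 (31.1 ± 6.93) could not be ordered: Dusp1 was 29.0, 9.52 and 93.2 against 31.1, 24.1 and 37.99 for Spry2 in the 3 libraries. Dusp2 (10.7 ± 5.42) followed, while Dusp6 (2.14 ± 0.518) and Dusp5 (0.547 ± 0.473) came sixth and seventh. In WT+EV Spry2 (35.5 ± 10.7) also stood ahead of Dusp2, and Dusp6 (8.93 ± 3.62) and Dusp5 (2.31 ± 1.16) came right after Dusp2 (21.7 ± 5.40). In knockout and wild-type marrow HSCs the order opened with Dusp1 (385 ± 53.8 and 598 ± 82.0), Dusp2 (234 ± 79.0 and 369 ± 109) and Dusp6 (53.7 ± 4.39 and 59.8 ± 12.5) and ended with Spry2 (2.12 ± 0.564 and 2.77 ± 0.732).

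Genes with the most similar leukaemia pattern were found by the root mean square distance of centred log2(CPM + 1) over the 12 libraries. The nearest to Dusp5 were Rabgap1l (0.481, against an SD of 1.59 for Dusp5 itself) and Ahnak (0.520), to Dusp6 Slc9a3r2 (0.394, SD 1.12) and Sash1 (0.421), to Dusp2 Rnd3 (0.413, SD 1.04) and Rarg (0.435), to Spry1 Tnfaip3 (0.330, SD 0.777) and Ier3 (0.353), and to Spry2 Rdx (0.184, SD 0.331) and Tram2 (0.189). With log2(CPM + 5) in place of log2(CPM + 1) both nearest genes stayed for Spry2 alone, and for Dusp2, Dusp5, Dusp6 and Spry1 0 of 2 did.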

How the data were processed

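RNA counts per gene were used as deposited, as whole numbers for each library in 4 tables. Per the submitters' processing notes the authors used bcl2fastq 2.17, TopHat and DESeq with the mm9 build. The counting tool, annotation and use of strand are not given in the sources used here. Per the labels' protocols, libraries were poly-A TruSeq, and RNA of the HSC libraries was first amplified with a SMARTer low-input kit. Columns were matched to libraries by name, with 0 unmatched. None of 124 library pairs within a table agreed within sampling noise (lowest chi-square per degree of freedom 12.2). Spike-in rows (92 in each of 2 tables, with at most 1 count) were left out.

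Tests were edgeR's quasi-likelihood tests (version 4.0.16, R 4.3.3), robust and two-sided, after filterByExpr and TMM scaling. P-values were adjusted by Benjamini-Hochberg over all genes tested, at a threshold of 0.05. One model held the 12 leukaemia libraries and a separate model each HSC source, since preparations differ. Genes tested numbered 12958 in leukaemia (biological coefficient of variation 0.253), 13495 in marrow (0.368), 15590 in the total-knockout (0.287) and 13631 in the f-PRDM16 fetal data (0.377). Differences between HSC effects were interactions in a joint model. Scripts were tested on simulated data. Values after ± are SE for log2 changes and SD for CPM, and CPM was computed from the deposited counts.

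Deviations from the group means were correlated between same-numbered libraries: 0.415, 0.202 and 0.626 in the total-knockout and 0.624, 0.351 and 0.519 in the f-PRDM16 fetal data, so the numbers were taken to pair those libraries. This comes from the data, since the labels state no pairing.

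Exon lengths came from GENCODE M21 (GRCm38) and start regions from RefSeq (GRCm38.p6), neither of which is the authors' build. The members and gene lists were chosen with earlier results of these data known. Genes named outside the set come from the 3 of each list with the smallest p among those that passed, and the 2 nearest in pattern to a member. Alternatives were DESeq2 1.42.0, RLE scaling, no filter, a replicate block, models of 2 groups alone and leaving out each library. Plots used Python 3.11.15, pandas 2.3.3 and matplotlib 3.10.9.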

Additional observations from a re-analysis of the deposited data

How the results depend on the processing

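Over 348 recomputed log2 changes of members, 321 kept their direction and side of the threshold, and 6 of 6 interaction counts and 90 of 90 levels did not move. Of 16 member calls, 7 held without any 1 library: the 4 genes in KO+s against KO+EV, and Dusp2, Dusp5 and Dusp6 in KO+f against KO+EV. Leaving out a library gave 0 to 2 members in KO+EV against WT+EV, 3 to 4 in KO+f and 4 to 4 in KO+s against KO+EV, 0 to 1 in KO+s against KO+f, 0 to 1 in KO+f and 1 to 2 in KO+s against WT+EV, and 0 to 0 in each HSC table. Genes called ranged, in the same order, over 26 to 425, 559 to 1533, 2732 to 3821, 37 to 388, 559 to 1071 and 1765 to 2467, and 0 to 3 in marrow and 0 to 0 in each fetal table.

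Without the low-count filter the members called were 0 in KO+s against KO+f, 0 in KO+f against WT+EV and 2 in KO+s against WT+EV. With a replicate block they were 1 in KO+EV against WT+EV, 0 in KO+s against KO+f and 2 in KO+s against WT+EV. Leukaemia and marrow numbers were not taken to pair libraries, and the labels do not say. Deviations of same-numbered libraries correlated at -0.182 to 0.289 in leukaemia and -0.0317 to 0.203 in marrow. In the total-knockout fetal table the replicate block called 176 genes, and it changed no call of a member in either fetal table. Fits of 2 groups alone called 0 members and 1 gene in KO+EV against WT+EV, 2 members and 392 genes in KO+f against KO+EV, and 3 members in KO+f against WT+EV. DESeq2 called 4 members and 2069 genes in KO+f against WT+EV, 1 member and 64 genes in marrow, 907 genes in KO+EV against WT+EV, 2267 in KO+f against KO+EV, 1406 in KO+s against KO+f, and 76 and 1 in the total-knockout and f-PRDM16 fetal tables. The cause of these shifts was not tested.

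Reversed values were all uncalled. Dusp5 in KO+s against KO+f became 0.00055 with RLE scaling, 0.019 with the block and 0.00027 in DESeq2, and Spred1 in KO+s against KO+EV became -0.010 with the block. Dusp1 in the total-knockout table became 0.0076 with RLE scaling, 0.0026 without a filter, 0.058 with the block and 0.0079 in DESeq2. Without 1 library 22 uncalled log2 changes turned in sign, over these ranges. In KO+EV against WT+EV Spry2 gave -0.39 to 0.080. In KO+f against WT+EV Dusp6 gave -0.41 to 0.12 and Spry1 -0.50 to 0.37. In KO+f against KO+EV Dusp1 gave -0.55 to 1.75 (1.745), Spry2 -0.26 to 0.15 and Spred1 -0.093 to 0.73. In KO+s against KO+EV Spred1 gave -0.43 to 0.51. In KO+s against KO+f Dusp2 gave -0.093 to 0.42, Dusp5 -0.17 to 0.14 and Spred1 -0.68 to 0.017. In marrow Spred2 gave -0.088 to 0.18. In the total-knockout table Dusp1 gave -0.18 to 0.37, Dusp2 -0.070 to 0.16, Dusp6 -0.31 to 0.076, Spry1 -0.29 to 0.26, Spry2 -0.44 to 0.21, Spred1 -0.38 to 0.012 and Spred2 -0.34 to 0.052. In the f-PRDM16 table Dusp1 gave -1.60 to 0.073, Dusp2 -0.70 to 0.065, Dusp6 -0.88 to 0.36 and Spry2 -0.38 to 0.89.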
